A study of Arabidopsis thaliana with 6 samples.

Results

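The genes LPR1 (AT1G23010), LPR2 (AT1G71040), PDR2 (AT5G23630), STOP1 (AT1G34370), ALS3 (AT2G37330) and STAR1 (AT1G67940, ABCI17 in RefSeq) act at the checkpoint by which Arabidopsis root tips stop growing when they meet low phosphate. They were followed by polyA RNA-seq in 6 root libraries, and were listed by gene ID, with earlier results of these data known. All 6 are among the 29613 gene IDs in the files, and all 6 were among the 19608 genes expressed highly enough to be tested. There were 3 libraries of wild type, given as accession Col-0 in the labels, and 3 of a line labelled 35S:NPC48, for which the labels name no accession. In that line the 35S promoter of cauliflower mosaic virus, active in most plant cells, drives NPC48, which is known to be a long RNA without a protein product. The labels do not say whether it is a single transgenic line, how many plants made a sample, or whether replicates came from separate cultures. P-values therefore measure library-to-library spread, which may be technical. Per the labels both genotypes received no treatment and grew to Boyes stage 1.0 on dilute Murashige and Skoog medium with 500 µM phosphate, in 16 h days at 24 °C and nights at 21 °C.

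LPR1 and LPR2 are multicopper ferroxidases, and LPR1 is known to act in the cell walls of the root tip. PDR2, a P5-type ATPase of the endoplasmic reticulum, is known to restrain them. STOP1 is a zinc finger transcription factor, controlled to a large part through the stability of its protein. It is known to activate ALMT1, a malate channel whose exported malate helps iron to build up in the wall. ALS3 and STAR1 are the membrane and ATP-binding parts of an ABC transporter, whose loss is known to make roots over-sensitive to low phosphate. In this pathway iron and LPR activity lead to callose deposition and arrest of the meristem.

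Transcripts of LPR1 were higher and those of STOP1 lower in the replicate 2 roots of both genotypes than in replicates 1 and 3. The other 4 genes did not pass the test for replicate 2, and none of the 6 passed the test between genotypes. For replicate 2, 26.4% of all tested genes were called, so the share of the 6 is near that background. The stretches just upstream of LPR1 and STOP1 are shown because these genes were called, and that of ALMT1 because it is the best known direct target of STOP1. Each holds the 250 bases before the annotated gene start, 5′ to 3′ on the plus strand, from RefSeq's TAIR10.1 at chr1:8146868-8147117 for LPR1, chr1:12550089-12550338 for STOP1 and chr1:2658352-2658601 for ALMT1. These positions are those of TAIR10.1, while the authors counted reads on TAIR10 and their files hold no positions. Capitals mark the stretch GGGGAGGG, which lies in the part of the ALMT1 promoter known to be bound by STOP1.
LPR1: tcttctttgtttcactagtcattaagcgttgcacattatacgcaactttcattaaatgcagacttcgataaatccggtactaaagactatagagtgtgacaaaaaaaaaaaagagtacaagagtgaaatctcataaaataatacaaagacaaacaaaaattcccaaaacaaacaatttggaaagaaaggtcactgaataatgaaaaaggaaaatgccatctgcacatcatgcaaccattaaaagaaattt
STOP1: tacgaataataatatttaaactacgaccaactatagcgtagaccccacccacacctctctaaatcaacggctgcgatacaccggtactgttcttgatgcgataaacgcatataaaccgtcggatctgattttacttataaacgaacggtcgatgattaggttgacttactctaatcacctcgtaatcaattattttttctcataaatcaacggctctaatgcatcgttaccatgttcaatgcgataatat
ALMT1: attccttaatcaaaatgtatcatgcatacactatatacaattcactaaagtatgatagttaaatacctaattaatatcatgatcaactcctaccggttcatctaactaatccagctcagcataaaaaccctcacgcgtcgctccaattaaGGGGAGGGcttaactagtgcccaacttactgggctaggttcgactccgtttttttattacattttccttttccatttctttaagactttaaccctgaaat

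On either strand, GGGGAGGG was found 100 bases before the start of ALMT1, counted from its first base, and in 0 of the 6 checkpoint genes. It was chosen with the ALMT1 sequence in view. It occurs in 0.113% of 27443 upstream windows of protein-coding genes of the same length. The P1BS motif, GNATATNC, is bound by the phosphate starvation regulator PHR1 and reads the same on both strands. It was found in 5.46% of all windows and in 0 of the 6 checkpoint genes. It was also not in the windows of SPX1 and IPS1, genes known to be induced by phosphate starvation. Motifs this rare would be absent from most sets of 6 windows, so their absence is no result about the checkpoint genes. Neither motif contains the other.

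The libraries held between 9479418 and 23830604 counts in all, the fewest in 35S:NPC48 replicate 1. Levels are given in CPM (a gene's counts as a share of its library, multiplied by a fixed factor), scaled by TMM, always in the order of replicates 1, 2 and 3. SPX1, which encodes a phosphate-sensing protein and is induced by starvation, stood at 7.97, 1266 and 6.78 CPM in the wild type libraries and at 7.67, 1004 and 12.5 CPM in the 35S:NPC48 libraries. Both replicate 2 libraries thus stood far above the other 4. Of 18 tested phosphate starvation genes, all 18 were called higher in replicate 2 and their median difference was 4.27 on the log2 scale, although the labels give the same phosphate supply to every library. NPC48 itself was not analysed here, so its overexpression was not checked.

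Scaled to exon length, STOP1 was the most abundant of the 6 transcripts and LPR1 the least. STOP1 stood at 99.1 ± 21.8 CPM per kb of exon (SD, n = 6 libraries of both genotypes). STAR1 followed at 42.0 ± 5.84, and PDR2 at 25.0 ± 1.22 CPM per kb. LPR2 stood at 13.7 ± 1.93 and ALS3 at 11.8 ± 1.38 CPM per kb, with ranges of 11.0 to 15.8 and 10.1 to 13.7. These neighbours in the order overlapped, and all other neighbours had separate ranges. LPR1 came last at 3.04 ± 1.23 CPM per kb, with its highest library at 5.15 and the lowest library of ALS3 at 10.1.

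**Figure D1:**
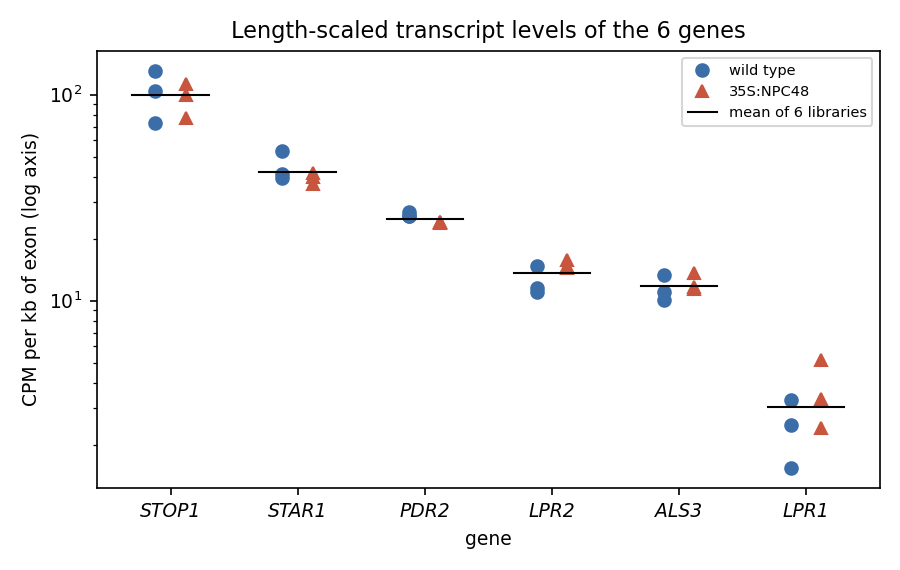
Length-scaled levels of the 6 checkpoint genes, in CPM per kb of exon on a log axis, one point for each of the 6 libraries, with circles for wild type, triangles for 35S:NPC48 and a line for the mean. STOP1 lies highest at a mean of 99.1 and LPR1 lowest at 3.04, and only LPR2 and ALS3 have ranges that overlap.

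The paralogs LPR1 and LPR2 differ enough in sequence to be told apart by exact stretches of 50 bases. Their coding sequences, 1746 bases each in TAIR10.1, were identical at 77.0% of 1733 aligned bases, and the longest run they shared was 29 bases. None of the 50-base windows within single exons of the 6 genes had a second exact match in the nuclear chromosomes, from 749 windows in ALS3 to 3147 in PDR2. Exons of several of the genes overlap neighbours on the other strand, whose reads cannot be told apart because the strand setting is not given in the sources used here. The shared exon bases were 24 of 2292 for LPR1, 49 of 1923 for STOP1, 41 of 896 for ALS3 and 91 of 1063 for STAR1. LPR2 and PDR2 overlapped no other gene.

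LPR1, the ferroxidase needed for growth arrest on low phosphate, was highest in replicate 2 of each genotype. It had 5.70, 7.54 and 3.54 CPM in the wild type libraries and 7.67, 11.8 and 5.50 CPM in the 35S:NPC48 libraries. Within each genotype replicate 2 was highest and replicate 3 lowest, while across genotypes 35S:NPC48 replicate 1 slightly exceeded wild type replicate 2. Averaged over genotypes, replicate 2 was 1.74-fold higher than replicates 1 and 3, a log2 difference of 0.80 ± 0.16 (SE, 95% interval 0.42 to 1.18, edgeR quasi-likelihood adjusted p = 0.0106). This difference is measured by the fit with genotype and replicate number as terms. With genotype left out of the fit, LPR1 was not called (adjusted p = 0.0640). These levels rest on 72 to 235 counts per library. The exact 95% Poisson interval for the smallest, of 35S:NPC48 replicate 1, runs from 56.3 to 90.7 counts and covers counting error only.

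STOP1 moved the other way. It had 199, 139 and 251 CPM in the wild type libraries and 215, 148 and 191 CPM in the 35S:NPC48 libraries. Both replicate 2 libraries lay below all of the other 4, a pattern seen in 21.1% of tested genes. Replicate 2 was 1.49-fold lower, a log2 difference of -0.57 ± 0.13 (SE, 95% interval -0.88 to -0.27, edgeR adjusted p = 0.0172). STOP1 had 2021 to 5966 counts per library, so counting error was small beside the spread between libraries.

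ALS3, the membrane part of the ABC transporter, had 9.84, 11.9 and 9.01 CPM in the wild type libraries and 10.2, 12.2 and 10.5 CPM in the 35S:NPC48 libraries. Both replicate 2 libraries lay above the other 4, as in 21.5% of tested genes. The log2 difference of 0.29 ± 0.14 did not pass (95% interval -0.03 to 0.61, edgeR adjusted p = 0.167).

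STAR1, its ATP-binding partner, had 41.7, 43.6 and 56.8 CPM in the wild type libraries and 42.4, 39.2 and 44.4 CPM in the 35S:NPC48 libraries. Wild type replicate 3 was the highest library, and replicate 2 fell among the others or just below them. Its log2 difference for replicate 2 was -0.15 ± 0.11 (95% interval -0.41 to 0.11, edgeR adjusted p = 0.353). The intervals of both transporter genes exclude differences as large as the fitted value of LPR1. That of ALS3 still overlaps the interval of LPR1, 0.42 to 1.18, so a difference between these genes is not shown.

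LPR2 had 36.6, 28.7 and 27.3 CPM in the wild type libraries and 39.1, 36.4 and 35.6 CPM in the 35S:NPC48 libraries. In both genotypes replicate 1 was highest, and replicate 2 was not set apart (log2 difference -0.09 ± 0.11, 95% interval -0.34 to 0.16, edgeR adjusted p = 0.577). PDR2 varied least of the 6, with 108, 113 and 109 CPM in the wild type libraries and 101, 100.5 and 102 CPM in the 35S:NPC48 libraries. Its coefficient of variation over the 6 libraries was 4.86%, against 40.5% for LPR1. The log2 difference of PDR2 for replicate 2 was 0.02 ± 0.09 (95% interval -0.19 to 0.23, adjusted p = 0.885).

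**Figure D2:**
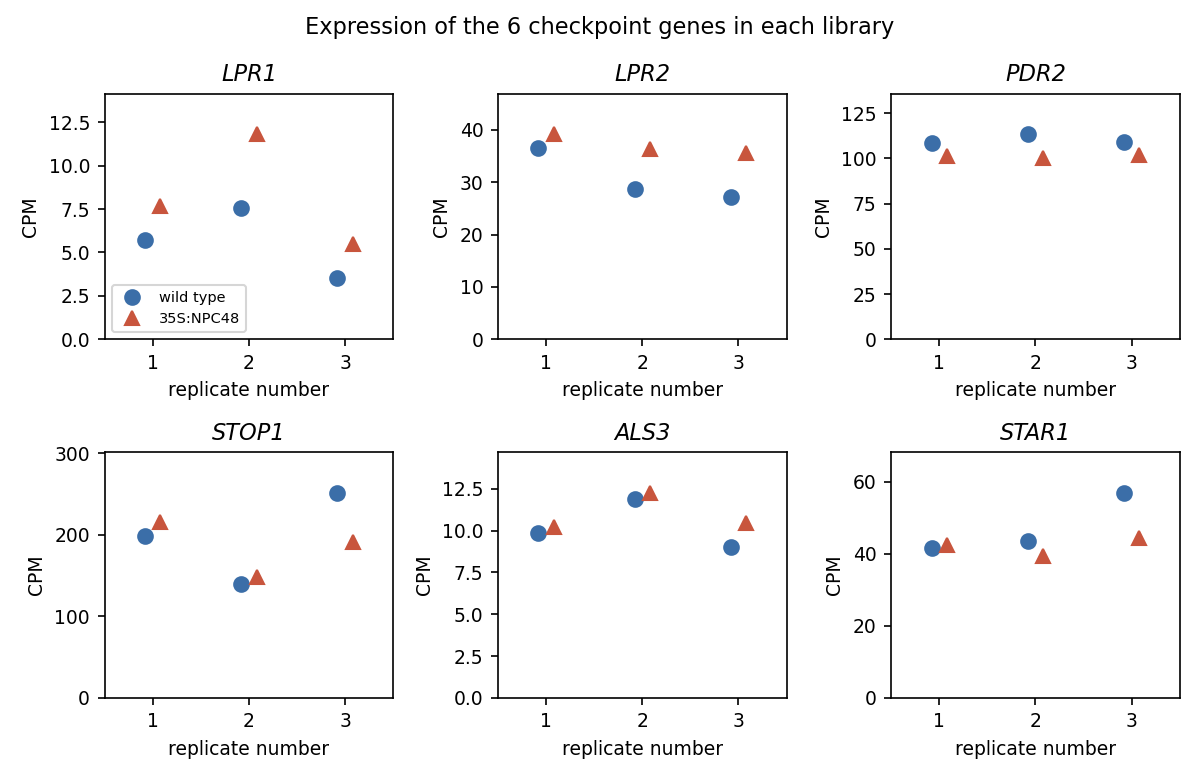
Expression of the 6 checkpoint genes in CPM (vertical axes from 0) against replicate number, with circles for wild type and triangles for 35S:NPC48, one point per library. LPR1 peaks and STOP1 dips in replicate 2 of both genotypes, while PDR2 stays between 100 and 113 CPM.

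Thus 2 of the 6 genes were called for replicate 2, where 26.4% of all tested genes were called, 14.2% higher and 12.2% lower. The share of the 6 is near that background and is no result about these genes. At an unadjusted p under 0.05 there were 2 of the 6, again LPR1 and STOP1, and 39.6% of all tested genes. The contrast on replicate 2 was chosen with its phosphate starvation transcripts already known. A test for any difference among the 3 replicate numbers, which singles out none of them, also called LPR1 (edgeR adjusted p = 0.0172) and STOP1 (0.0422) and 21.0% of tested genes. Between replicates 3 and 1, 0 of the 6 genes and 0 of all tested genes were called by edgeR. At an unadjusted p under 0.05 there were 2659 genes (13.6%), among them 1 of the 6, LPR1, with a log2 difference of -0.59 ± 0.20. Without wild type replicate 2 neither gene passed, with an edgeR adjusted p of 0.0804 for LPR1 and 0.234 for STOP1, nor without 35S:NPC48 replicate 2, with 0.195 and 0.106. In these fits 1 library alone stands for replicate 2 and is assumed to vary like the rest. Their log2 differences then lay between 0.75 and 0.86 for LPR1 and between -0.69 and -0.46 for STOP1.

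Both genotypes showed the step in replicate 2. On the log2 scale with 0.5 added to the CPM, LPR1 in replicate 2 exceeded the mean of replicates 1 and 3 by 0.68 in wild type and 0.81 in 35S:NPC48. For STOP1 these values were -0.68 and -0.45. No difference of this step between genotypes was called in edgeR's interaction test, for 0 of the 6 genes and 0 of all tested genes, with 172 genes (0.877%) and 0 of the 6 at an unadjusted p under 0.05. The 95% intervals of that interaction were wide, from -1.0 to 1.3 for LPR1 and from -0.49 to 0.97 for STOP1.

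Over all lists of root cell type and shoot markers, 10 of 40 tested markers (25%) were called for replicate 2, near the 26.4% of all tested genes, so the count is no result about the markers. Of 5 root hair markers, 4 were called higher (COBL9, EXPA7, EXPA18 and RHD6), and RSL4 was not called (log2 difference -0.15). The list summed to 264 and 299 CPM in replicate 2 against 142 to 208 CPM in the other 4 libraries. Of 6 markers of the meristem and stem cell niche, the mitotic cyclin gene CYCB1;1 was called higher and WOX5 and SCR lower. That list summed to 99.9 and 102 CPM in replicate 2 against 109 to 121 CPM elsewhere. Among the remaining lists the calls were CASP5 of 6 endodermis markers (lower), SUC2 of 4 phloem markers (higher) and LHCB4.1 of 9 tested shoot markers (lower), with 0 of 4 root cap and 0 of 6 xylem markers. The sums in replicate 2 against the other libraries were 494 and 564 against 470 to 854 CPM for endodermis and 141 and 170 against 96.4 to 159 CPM for phloem. They were 59.5 and 106 against 79.3 to 160 CPM for shoot, 41.3 and 41.8 against 29.1 to 44.3 CPM for root cap, and 487 and 536 against 465 to 590 CPM for xylem. LHCB1.1 was at 0 in at least 1 library, and no other marker was. The part of these cell types in the levels of LPR1 and STOP1 was not tested. In such bulk samples, fewer cells of a type and less RNA per cell cannot be told apart.

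The overlapping neighbours on the other strand did not all move like the genes they touch. FRO3, a ferric reductase gene that shares exon bases with LPR1, had 32.7, 27.3 and 46.9 CPM in the wild type libraries and 39.5, 40.2 and 53.2 CPM in the 35S:NPC48 libraries. Its log2 difference for replicate 2 was -0.35 ± 0.12 and did not pass (edgeR adjusted p = 0.0567). RS2Z33 opposite ALS3 fell (-0.55 ± 0.14, adjusted p = 0.0214), and AT1G67950 opposite STAR1 rose (0.62 ± 0.11, adjusted p = 0.00644). AT1G06753 opposite STOP1 was not analysed here.

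Known targets of STOP1 changed in both directions in replicate 2. Of 11 listed genes 10 were tested, and 3 were called higher and 5 lower, with a median log2 difference of -0.71 against -0.01 over all genes. Of all tested genes, 14.2% were called higher and 12.2% lower. With a single library left out, the filter on low counts was applied anew, so the set of tested genes differed. Then 9 or 10 listed targets were called where the library left out was of replicate 1 or 3. Fewer were called where it was the replicate 2 library of either genotype. The steepest was NRT1.1, the nitrate transporter and sensor gene. It had 1691, 720 and 2220 CPM in the wild type libraries and 1637, 561 and 1432 CPM in the 35S:NPC48 libraries (-1.45 ± 0.16, edgeR adjusted p = 0.000634). TDT, the malate carrier of the vacuole membrane, had 60.6, 29.2 and 62.8 CPM in the wild type libraries and 85.3, 39.2 and 75.6 CPM in the 35S:NPC48 libraries. In both genes each replicate 2 library was below all the others.

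CIPK23, a protein kinase that acts on potassium and nitrate transporters, had 325, 198 and 311 CPM in the wild type libraries and 293, 161 and 349 CPM in the 35S:NPC48 libraries. PGIP1, an inhibitor of fungal polygalacturonases, went up instead, with 167, 314 and 147 CPM in the wild type libraries and 165, 325 and 165 CPM in the 35S:NPC48 libraries. Its log2 difference was 0.99 ± 0.10 (edgeR adjusted p = 0.000371).

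The other called targets are named after their values were seen. STOP2, the closest relative of STOP1, had a log2 difference of -0.69 ± 0.12, and its level was 105, 70.4 and 139 CPM in the wild type libraries and 119, 78.3 and 117 CPM in the 35S:NPC48 libraries. STOP2 was thus lower in replicate 2 (edgeR adjusted p = 0.00595), as STOP1 was. The glutamate dehydrogenase genes went opposite ways, GDH1 with -0.74 ± 0.10 and GDH2 with 0.68 ± 0.10 on the log2 scale. ALMT1 had 72.2, 144 and 123 CPM in the wild type libraries and 77.8, 147 and 158 CPM in the 35S:NPC48 libraries. It was called higher in replicate 2 (0.51 ± 0.10, edgeR adjusted p = 0.0102), but replicate 3 of 35S:NPC48 was higher still, and replicate 1 was the lowest library of each genotype. AT1G51340 and SULTR3;5 did not pass. PGIP2, the member not tested, had 0, 12 and 1 counts in the wild type libraries and 0, 27 and 2 in the 35S:NPC48 libraries. Its few counts thus lay mostly in replicate 2. Without the filter on low counts, 10 of the listed targets were called.

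Among 10 genes known for acting on STOP1 itself, 0 were called higher and 2 lower in replicate 2. Over all tested genes 26.4% were called, so this share is near the background and is no result about the list. The 2 called were the MAP kinase kinase gene MKK1 (-0.54 ± 0.13, edgeR adjusted p = 0.0207) and the F-box gene AT5G27920 (-0.45 ± 0.10, adjusted p = 0.0159). HPR1 and TEX1, subunits of the THO complex for mRNA export, had log2 differences of 0.04 ± 0.11 and 0.14 ± 0.14. Those of the SUMO ligase gene SIZ1 and the SUMO protease gene ESD4 were -0.17 ± 0.10 and 0.05 ± 0.13. Leaving out wild type replicate 2 or 35S:NPC48 replicate 2 gave 0 calls, wild type replicate 1 gave 1, and wild type replicate 3 gave 4.

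Of 10 checkpoint partners, 0 were called higher and 3 lower in replicate 2, where 26.4% of all tested genes were called. This share is near that background and is no result about the list. SCR, a transcription factor of the stem cell niche and endodermis, had 53.1, 41.1 and 61.7 CPM in the wild type libraries and 55.2, 41.5 and 57.4 CPM in the 35S:NPC48 libraries (-0.46 ± 0.10, edgeR adjusted p = 0.0124). BZR1, a transcription factor of brassinosteroid signalling, had a log2 difference of -0.52 ± 0.11 (adjusted p = 0.0121), and AT5G35735 one of -0.68 ± 0.17 (0.0218). The peptide gene CLE14, which acts on the root meristem, had -0.54 ± 0.30 and did not pass (0.222). ALS1, an ABC transporter of the vacuole membrane, did not pass either (-0.23 ± 0.10, 0.136). The count was 0 without wild type replicate 2 or without 35S:NPC48 replicate 2, but rose to 6 when wild type replicate 3 was left out and to 8 when 35S:NPC48 replicate 3 was.

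Of the 7 callose synthase genes on the list, 6 were tested, and 1 was called. CALS1 had 460, 200 and 395 CPM in the wild type libraries and 381, 165 and 460 CPM in the 35S:NPC48 libraries. Both replicate 2 libraries lay well below the rest (-1.22 ± 0.14, edgeR adjusted p = 0.000863). The other 5 tested genes had log2 differences between -0.22 and 0.18 and did not pass. There were 2 calls when the replicate 3 library of either genotype was left out. Read against the 26.4% of all tested genes called, the shares were 8 of 10 for STOP1 targets, 2 of 10 for STOP1 regulators, 3 of 10 for checkpoint partners and 1 of 6 for callose synthases. Apart from that of the STOP1 targets, these shares lie near the background and are no result about the lists.

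**Figure D3:**
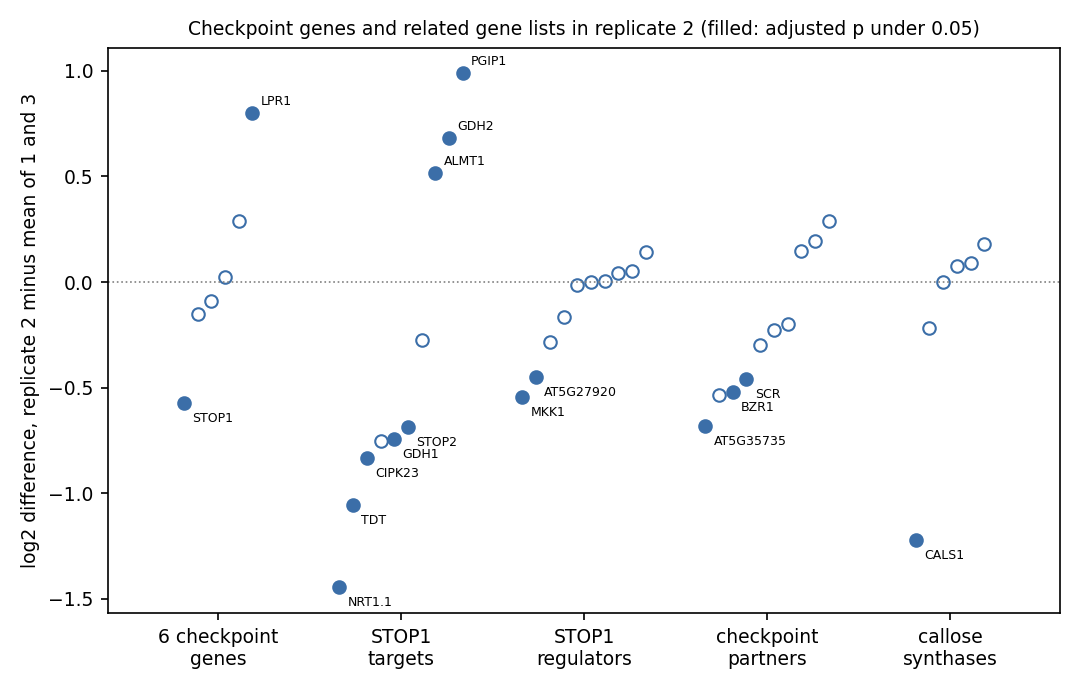
Log2 difference of replicate 2 from the mean of replicates 1 and 3 for each tested gene of 5 groups, filled where the adjusted p was under 0.05 and then named. STOP1 targets spread from -1.45 for NRT1.1 to 0.99 for PGIP1, and the 6 checkpoint genes from -0.57 for STOP1 to 0.80 for LPR1.

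Between genotypes, 0 of the 6 checkpoint genes were called, with or without the replicate number as a block. Without the block edgeR called 2 genes in all (0.0102%), and with it 237 (1.21%), of which 0.841% of tested genes were higher and 0.367% lower. At an unadjusted p under 0.05 there were 0 of the 6 without the block and 2 with it, LPR1 and LPR2, where 3.54% and 11.2% of all genes were. DESeq2 and limma-voom also called 0 of the 6. The median log2 fold change of the 6 genes was 0.01, as it was over all genes.

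LPR1 had the largest fitted change of the 6, from a wild type mean of 5.59 ± 2.00 CPM to 8.32 ± 3.20 CPM in the transgenic line (SD, n = 3 each). Its level was higher in 35S:NPC48 in each replicate number, as for 17.0% of tested genes (15.7% were lower in each), but the groups overlapped. The log2 fold change was 0.58 ± 0.37 without the block (95% interval -0.28 to 1.44, edgeR adjusted p = 0.9999) and 0.57 ± 0.16 with it (0.20 to 0.95, adjusted p = 0.209). Its value without the block was 0.21 when 35S:NPC48 replicate 2 was left out and 0.85 when wild type replicate 2 was. LPR2 had 30.8 ± 5.03 and 37.0 ± 1.85 CPM, also higher in each replicate number (0.28 ± 0.10 with the block, adjusted p = 0.361). The 2 ferroxidase genes thus had positive values, and neither was called.

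PDR2 was the member whose genotypes did not overlap. The mean level was 110.1 ± 2.70 CPM in the wild type libraries and 101 ± 0.820 CPM in the others, and 7.76% of all genes showed no overlap. The log2 fold change was -0.12 ± 0.12 (95% interval -0.41 to 0.17, edgeR adjusted p = 0.9999), and with the block the interval was -0.32 to 0.08. STOP1 had 197 ± 56.1 and 185 ± 34.0 CPM, ALS3 10.3 ± 1.49 and 11.0 ± 1.1 CPM, and STAR1 47.4 ± 8.25 and 42.0 ± 2.59 CPM. Their intervals without the block ran from -0.68 to 0.50, from -0.32 to 0.52 and from -0.54 to 0.19 on the log2 scale. With the replicate block the intervals were narrower, from -0.35 to 0.22 for STOP1, from -0.21 to 0.42 for ALS3 and from -0.41 to 0.08 for STAR1.

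None of the related genes was called between genotypes either, with or without the block. This holds for 10 STOP1 regulators, 10 tested STOP1 targets, 10 checkpoint partners and 6 tested callose synthases. Their median log2 fold changes without the block were -0.07, 0.09, -0.01 and -0.19. All 6 tested callose synthases of the list had negative values, from -0.36 to -0.07, and 0 passed. Of all tested genes, 51.7% had positive values. TDT had the smallest adjusted p of the STOP1 targets with the block (0.39 ± 0.09, edgeR adjusted p = 0.133).

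**Figure D4:**
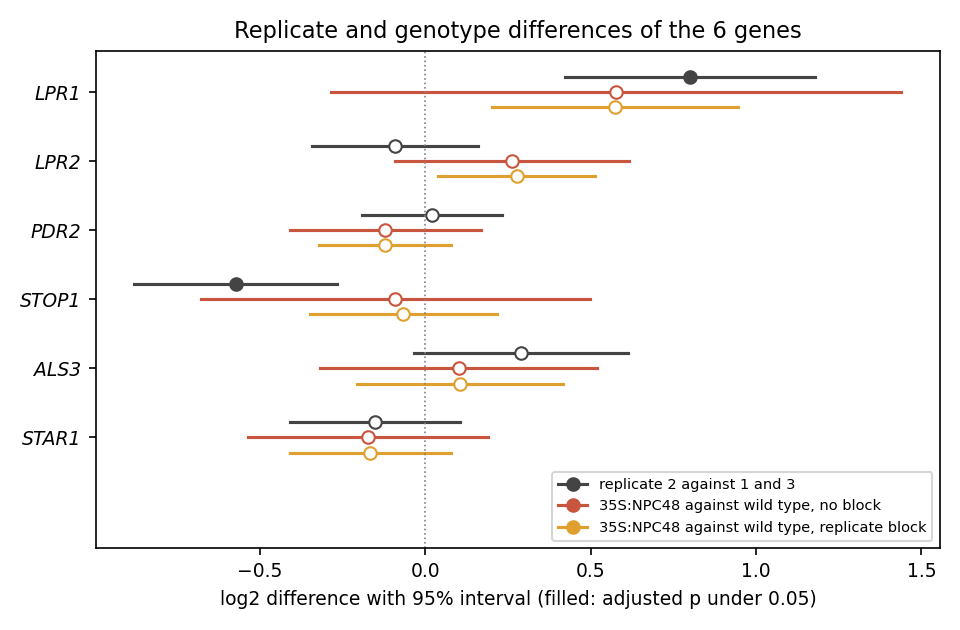
Fitted log2 differences of the 6 checkpoint genes with 95% intervals, for replicate 2 against the mean of 1 and 3 and for 35S:NPC48 against wild type with and without the replicate block, filled where the adjusted p was under 0.05. LPR1 (0.80) and STOP1 (-0.57) are filled for replicate 2, and no gene is filled for genotype.

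The genes whose pattern over the 6 libraries was most like that of each member were sought among 15515 tested genes whose mean level reached 5 CPM. Likeness was the root mean square difference of log2 CPM, each gene centred on its own mean, and small values are alike. For STOP1 the nearest were AT1G67900, of the NPH3 family, at 0.03 and the ammonium transporter gene AMT1;2 at 0.04, where the median gene was at 0.34. For LPR1 even the nearest, ABS2 of the B3 family and AT2G33400, were at 0.14, with a median of 0.57. PDR2 was matched by AT3G17900 at 0.02 and by RHD3, a GTPase of root hair growth, at 0.03. For LPR2 they were MYR1 and EMB2421 at 0.06, for ALS3 the plastid pyruvate kinase gene PKp3 and AT5G64600 at 0.04, and for STAR1 NET4A and AT2G17320 at 0.04. Among the members themselves, STAR1 and PDR2 were most alike at 0.15, and LPR1 and STOP1 least alike at 0.78. The median gene was at 0.22 from PDR2 and at 0.27 from STAR1. By this measure any genes that vary little are alike.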

How the data were processed

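Each library came as a deposited table of raw gene-level counts. The build TAIR10 and the tools STAR 2.5.2b, Trimmomatic 0.36, Subread 1.6.5 and featureCounts are named in the submitters' processing notes. Not given in the sources used here are the annotation release, the strand setting and how multiply matching reads were treated. The software was edgeR 4.0.16, DESeq2 1.42.0 and limma 3.58.1 under R 4.3.3. Low genes were removed by filterByExpr (minimum count 10, minimum total 15), libraries were scaled by TMM, and CPM use these sizes. Tests were edgeR's quasi-likelihood F test, with Benjamini-Hochberg adjustment over all 19608 genes and a threshold of 0.05. The genotype test had genotype as its single term. The replicate test had genotype and replicate number, and the interaction test took replicates 1 and 3 as repeats. Standard errors come from the F statistic.

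Deviations from group means correlated across genes by 0.53, 0.83 and 0.37 for replicate numbers 1, 2 and 3, all over 0.1. The main genotype test nevertheless leaves the number out, and its fit with the number as a block is given beside it. Across numbers, wild type replicate 1 correlated with 35S:NPC48 replicate 3 by 0.39 and wild type replicate 3 with 35S:NPC48 replicate 1 by 0.34, so the correlations hardly tell numbers 1 and 3 apart. No shared day or batch is stated. The sample titles give both genotypes the letters A, B and D. Deviations sum to 0 within each genotype, so a deviation of replicate 2 shared by both pushes replicates 1 and 3 of both the other way. The positive correlations of numbers 1 and 3 therefore do not speak for pairs. Only these letters, the labels' numbers and the correlation of replicate 2 do. Libraries of each genotype differed by more than sampling noise (chi-square per degree of freedom 16.5 to 99.6). Exon lengths, upstream sequences and overlaps come from RefSeq's annotation of TAIR10.1. The tests were tried on simulated data. Members, lists and the rule for named genes (all members, their 2 nearest genes by pattern, and up to 4 called genes per list) were chosen with earlier results of these data known.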

Additional observations from a re-analysis of the deposited data

How the results depend on the processing

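The alternatives were DESeq2's size factors (RLE), no filter on low counts, DESeq2, limma-voom, the replicate block, leaving out libraries and, for the replicate test, no genotype term. Between genotypes, 0 of the 6 genes were called in each of them. Over all genes, where edgeR called 0 raised and 2 lowered, DESeq2 called 105 and 48, limma-voom called 0 lowered, and the replicate block 165 and 72. Without both replicate 2 libraries there were 28 and 18, and with the replicate block as well 87 and 31. Leaving out 1 library gave 0 raised and 0 to 2 lowered genes. The fitted genotype value of STOP1 then ran from -0.29 to 0.12 and was above 0 without wild type replicate 3 (0.12) or 35S:NPC48 replicate 2 (0.04), never called.

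For replicate 2, 2 of the 6 genes were called under RLE, no filter, DESeq2 and limma-voom. Without a genotype term 1 was called, STOP1, with LPR1 at 0.83 on the log2 scale. Leaving out 1 library gave 0 to 3 of the 6. The 3 were found without 35S:NPC48 replicate 3, where STAR1 passed (-0.23, edgeR adjusted p = 0.0490). Over all genes it gave 802 to 4205 raised and 570 to 4368 lowered genes. The replicate 2 difference of PDR2 then ran from -0.016 to 0.064, with -0.016 without wild type replicate 2 and -0.0079 without wild type replicate 3.

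The interaction test called 0 of the 6 under each alternative, and 0 to 14 raised and 0 to 4 lowered genes when 1 library of replicate 1 or 3 was left out. Its values changed sign for LPR1 (-0.24 to 0.47), LPR2 (-0.12 to 0.33) and STAR1 (-0.20 to 0.23). It could not be fitted without a replicate 2 library. The cause of these shifts was not tested. Counting error limits LPR1 most, at up to 23.8% of its count.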
